A study of Mus musculus with 67 samples.

Results

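The retinal pigment epithelium (RPE) libraries of this mouse series were read for 9 genes that code for receptors and enzymes: the receptors Tshr, Crhr2, Adra2c, Gpr139, Minar1 and Itgb8, and the enzymes Enpp2, Trhde and Inpp5k. They were found by matching their Ensembl identifiers to these symbols, and they are 9 of the 16714 genes of the RPE table and 9 of the 16930 genes of the retina table. The genes were chosen by their RPE CPM at 1d, which was low against NB, so their values in that comparison are a description and carry no test. The label under which they were grouped calls them lost at 1d, but all 9 still had reads in every 1d library, and the mean level ranged from 8.82% (Gpr139) to 28.8% (Enpp2) of the NB mean.

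All libraries analysed came from photosensitive mice on a C57BL/6J background that lack both Abca4 and Rdh8 (Abca4-/- Rdh8-/-), so the NB animals carry the deletions too. There were 5 RPE libraries of NB, 3 of 6h, and 4 each of 1d and 3d, beside 6 retina libraries of NB, 3 of 6h, and 4 each of 1d and 3d. The labels do not say what NB stands for, from what event the times run or how old the mice were. Each library holds both eyes of 1 mouse; RPE cells were shaken off the eyecup and the choroid was then removed. Values are CPM (reads of a gene scaled to the depth of its library, by the authors), and a gene is said to pass the test where its limma p-value, adjusted over all genes of the table, is under 0.05.

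Abca4 codes for a flippase that clears all-trans-retinal from photoreceptor outer segments, and Rdh8 for an enzyme that reduces it, so mice without both handle bleached chromophore slowly. The RPE is a pigmented monolayer behind the photoreceptors that recycles the visual chromophore, takes up shed outer segments, transports ions and nutrients and releases growth factors toward the retina and the choroid. Receptors on its surface couple through G proteins to cyclic AMP or calcium, an integrin on its surface can release TGF-beta from its latent form, and autotaxin, made by several epithelia, produces the lipid mediator lysophosphatidic acid.

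Upstream sequences are given for Adra2c and Trhde because these are the members in which a searched motif was found; RefSeq windows (GRCm38.p6) were matched for 6 of the 9 genes (Adra2c, Crhr2, Minar1, Trhde, Inpp5k and Itgb8). The window of Adra2c is chr5:35278316-35278565 on the plus strand and that of Trhde is chr10:114802303-114802552 on the minus strand. Both are written 5′ to 3′ and end at the base before the annotated start. Capitals mark the motif.
Adra2c: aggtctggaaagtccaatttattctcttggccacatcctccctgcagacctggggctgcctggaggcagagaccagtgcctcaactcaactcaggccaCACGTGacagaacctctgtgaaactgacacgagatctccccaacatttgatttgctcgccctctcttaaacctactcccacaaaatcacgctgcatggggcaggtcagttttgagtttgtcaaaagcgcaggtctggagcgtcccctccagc
Trhde: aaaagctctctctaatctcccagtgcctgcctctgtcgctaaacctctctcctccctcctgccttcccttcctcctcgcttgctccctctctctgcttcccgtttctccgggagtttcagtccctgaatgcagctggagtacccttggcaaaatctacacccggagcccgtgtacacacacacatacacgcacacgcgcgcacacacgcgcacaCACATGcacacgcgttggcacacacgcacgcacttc
The capitals of Adra2c spell CACGTG, the palindromic E-box, 152 to 147 bases before the start. Of all 32851 windows of this length, 6.02% hold it. The capitals of Trhde spell CACATG, the other-strand form of CATGTG (an E-box of the kind MITF binds), 36 to 31 bases before the start, and 12.2% of all windows hold it on either strand. In Trhde it lies within a stretch made mostly of CA and CG repeats. The CRX and OTX2 core TAATCC (6.25% of all windows), the cyclic AMP response element TGACGTCA (1.55%) and the AP-1 motif TGANTCA (6.75%) were searched on both strands too and were not found in the 6 windows. No motif was held by more than 1 of the 6 windows. These matches describe letters only.

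By depth the libraries formed a deeper set and a shallower set. In RPE the 3 libraries of 6h and 1 NB library (called NB A1 here) held 23.1 to 26.8 M reads, while those of the remaining 12 ran from 11.5 to 14.4 M. In retina the 3 libraries of 6h and 2 NB libraries (A1 and A2) held 22.6 to 32.4 M, and in the remaining 12 they ran from 9.45 to 15.2 M. In RPE, NB A1 had the highest NB value for 9 of 9 members and 6h 1 the lowest 6h value for 9 of 9, and 3d 2 had the highest 3d value for 9 of 9. The RPE libraries were checked against 18 RPE marker genes, all of them in the table: their summed level was 19305 to 32809 CPM in NB, 12643 to 18190 at 6h, 11967 to 16160 at 1d and 20948 to 37515 at 3d. It was highest in the same NB A1 and 3d 2, and lowest of the 6h libraries in 6h 1. Rpe65, the retinoid isomerase that defines the RPE, averaged 2462 ± 797 CPM in NB (SD, n = 5), whereas Best1, a chloride channel gene of the RPE, averaged only 1.65 ± 0.492. Markers of surface epithelium (9 of 10 in the table) were abundant in RPE libraries of every group, with summed levels of 14753 to 37757 CPM in NB, 20292 to 31806 at 6h, 24730 to 50734 at 1d and 11509 to 30071 at 3d.

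Tshr, the receptor for thyroid-stimulating hormone (chr12:91400993-91540509), stood at 199.8 CPM in NB A1 and at 121, 125, 87.7 and 95.8 in NB B1 to B4. It stood at 59.9, 82.2 and 81.0 at 6h, at 29.0, 31.6, 18.9 and 25.3 at 1d, and at 71.4, 141, 92.5 and 88.8 at 3d. All 6h libraries were below all NB libraries, and the 1d libraries were below every other library. The mean at 1d was 20.8% of the NB mean, a log2 difference of -2.20 ± 0.23 (SE), and the 3d libraries overlapped NB at -0.34 ± 0.23.

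Crhr2, a receptor for urocortins (chr6:55090048-55133016), was at 27.2, 27.1, 22.6, 13.0 and 17.4 CPM in the NB libraries A1 and B1 to B4. Its 6h values were 5.92, 7.66 and 8.95, its 1d values 5.44, 7.46, 4.48 and 4.60, and its 3d values 13.1, 21.5, 13.5 and 15.0. For this gene most of the difference was present at 6h, where the mean was 35.0% of NB (log2 -1.42 ± 0.24), and the 6h and 1d libraries overlapped. At 1d the mean was 25.6% of NB (log2 -1.85 ± 0.22).

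Adra2c, a receptor for noradrenaline and adrenaline that couples to inhibitory G proteins (chr5:35278566-35281763), read 87.8, 80.2, 81.2, 58.8 and 63.9 CPM in NB A1 and B1 to B4. It read 16.9, 25.2 and 23.3 at 6h, 17.1, 26.3, 12.2 and 16.8 at 1d, and 40.9, 98.3, 59.0 and 64.8 at 3d. All 6h libraries of Adra2c were already within the range of the 1d libraries. The log2 difference from NB was -1.75 ± 0.26 at 6h, the lowest of the 9 genes at that time, and -2.04 ± 0.23 at 1d. The motif CACGTG shown in capitals above lies upstream of this gene, and no binding was measured here.

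Gpr139, a G protein-coupled receptor that responds to aromatic amino acids (chr7:119140747-119184538), was near the floor of detection. Its CPM was 8.77 in NB A1 and 4.59, 4.16, 3.73 and 3.07 in NB B1 to B4, and 1.16, 1.90 and 2.12 at 6h. At 1d it was 0.316, 0.546, 0.695 and 0.159, which is 2 to 9 reads a library, and at 3d 1.00, 3.15, 2.69 and 1.56. The 1d libraries were below all others, but so few reads set the size of the difference only roughly. Minar1 (chr9:89587208-89623887), which codes for a membrane protein named for its association with Notch2, had 7 to 15 reads a library at 1d. It read 7.46, 5.90, 5.49, 5.20 and 3.91 CPM in NB A1 and B1 to B4, and 1.2998, 3.01 and 2.34 at 6h. Its values were 0.631, 1.37, 0.540 and 0.714 at 1d and 3.86, 5.27, 4.17 and 3.72 at 3d. Lowest of its 6h libraries was 6h 1, which fell inside the 1d range.

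Itgb8, the integrin beta subunit that pairs with alpha v and activates latent TGF-beta (chr12:119162803-119238276), was at 1095 CPM in NB A1 and at 664, 625, 466 and 571 in NB B1 to B4. It was at 241, 405 and 433 at 6h, at 161, 207, 125 and 134 at 1d, and at 587, 1033, 653 and 667 at 3d. The 6h libraries lay between those of NB and 1d without overlap. At 1d the mean was 22.9% of NB (log2 -2.09 ± 0.25), and at 3d it was 107% of NB with overlapping libraries.

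Enpp2, the gene for autotaxin, a secreted enzyme that makes lysophosphatidic acid (chr15:54838901-54952789), was at 2689, 1949, 1890.0, 1420.2 and 1525 CPM in NB A1 and B1 to B4. Its values were 718, 1050.2 and 1089 at 6h, 573, 614, 445 and 548 at 1d, and 889.6, 1363, 953 and 1078 at 3d. The 1d libraries were the lowest, and the 3d libraries overlapped those of 6h. Enpp2 was the only member whose 3d libraries all lay below all NB libraries (1363 CPM as the highest at 3d against 1420.2 as the lowest in NB), where 1.34% of all genes did so, with a 3d mean of 56.5% of NB (log2 -0.81 ± 0.20).

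Trhde, an ectoenzyme of the M1 aminopeptidase family that degrades thyrotropin-releasing hormone (chr10:114398820-114802302), read 90.4 CPM in NB A1 and 45.6, 45.1, 28.3 and 31.2 in NB B1 to B4. At 6h it read 13.3, 26.6 and 29.7, at 1d 9.94, 9.92, 5.17 and 7.93, and at 3d 34.6, 68.9, 43.1 and 46.2. The 6h libraries overlapped NB through 6h 3, and the 1d libraries were below all others. The mean at 1d was 17.1% of NB (log2 -2.39 ± 0.32), and NB A1 stood above the other NB libraries.

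Inpp5k, a phosphatase that removes a phosphate from phosphoinositides and dampens insulin signalling (chr11:75629067-75648865), was at 1211, 788, 809, 687 and 686 CPM in NB A1 and B1 to B4. It was at 513, 733 and 689 at 6h, at 121, 214, 128 and 139 at 1d, and at 597, 1026, 709.8 and 729.8 at 3d. Of the 9 genes it had the smallest difference at 6h, where the libraries overlapped NB (log2 -0.36 ± 0.23). At 1d its mean was 18.0% of NB (log2 -2.48 ± 0.21).

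**Figure D1:**
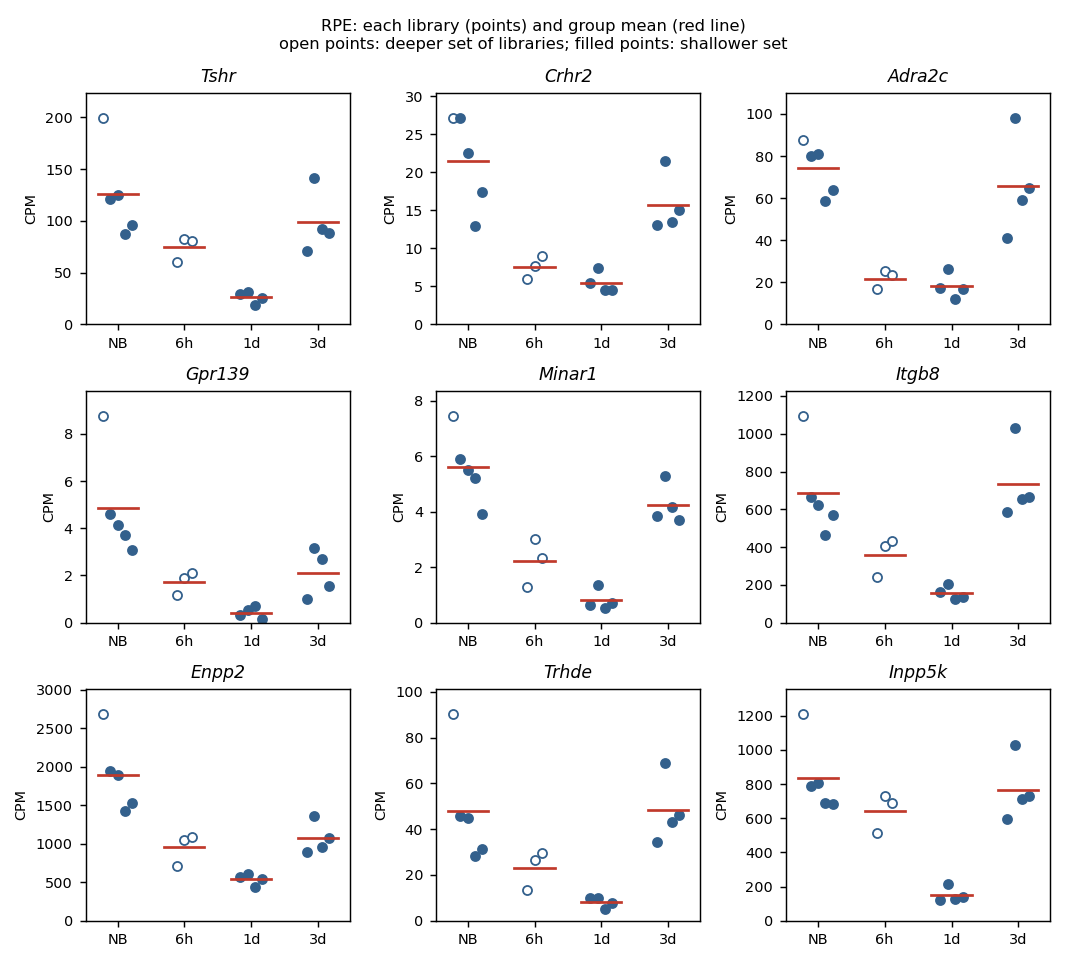
Level in CPM (linear axis from 0) of each of the 9 genes in every RPE library, by group (5 NB, 3 6h, 4 1d and 4 3d libraries), with the group mean as a red line and the deeper set of libraries as open points. All 1d points lie below all NB points in the 9 panels, NB A1 is the highest NB point in each, and 3d 2 is the highest 3d point in each.

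In the comparison that chose them, all 9 genes were past the test in the lower direction at 1d against NB, where 3.84% of all 16712 genes tested were, and their libraries lay wholly below NB, where 5.27% of all genes did. Nothing is read from those counts. Their log2 differences ran from -2.48 to -1.77 with a median of -2.20, beside a median of 0.0029 over all genes, and ranked between 5 and 31 from the lowest of the 16712. Without NB A1 the 9 ran from -2.33 to -1.63 and stayed past the test. The authors' deposited table gives log2 fold changes from -3.50 (Gpr139) to -1.80 (Enpp2) for the same libraries. As the libraries are bulk tissue, fewer RPE cells and less RNA per cell cannot be told apart.

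At 6h against NB all 9 values were below 0, beside 50.1% of all genes, with a median log2 difference of -0.99 and a range from -1.75 (Adra2c) to -0.36 (Inpp5k). The 6h libraries lay wholly below NB for 7 of the 9, where 5.98% of all genes did so, and overlapped NB for Trhde and Inpp5k. Minar1, Enpp2, Adra2c and Crhr2 were past the test, 4 of 9, where 0.652% of all genes were past it in the lower direction. This comparison uses the NB libraries that chose the genes, so its counts are given as a description. Without 6h 1 the count was 0, without 6h 3 it was 1, and without NB B1 or without NB B2 it was 2. Among all genes the count of 244 became 9 without 6h 1, 17 without 6h 3, 41 without NB B1, 40 without NB B2, 67 without NB B4, 442 without 6h 2 and 1011 without NB A1. Only NB A1 is in the depth set of the 6h libraries, so no fit within that set could be had, and depth set and time cannot be told apart here.

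At 3d against 1d all 9 genes were past the test in the higher direction, where 4.92% of all genes were, and their 3d libraries lay wholly above those of 1d, where 10.6% of all genes did so. The 1d libraries are those in which the genes were chosen, so this too is a description. The log2 differences ran from 0.96 ± 0.21 (Enpp2) to 2.47 ± 0.34 (Trhde), with a median of 1.87. Gpr139 and Enpp2 were not past the test without 3d 2, and Gpr139 was not past it without 1d 4. Against NB, 0 of the 9 were past limma's test at 3d, where 0.18% of all genes were past it in either direction. At an unadjusted p under 0.05 there were 2 (Gpr139 and Enpp2), with DESeq2 there was 1 (Enpp2) and with edgeR 0. The difference from NB at 3d was below 0 for 7 of the 9, beside 49.7% of all genes, at a median of -0.34 over the 9. Gpr139 stood at -1.05 ± 0.31 with overlapping libraries, and Trhde (0.08 ± 0.32) and Itgb8 (0.13 ± 0.25) stood above 0; Trhde was below 0 with edgeR and DESeq2, Itgb8 was below 0 without 3d 2, and Inpp5k (-0.12 ± 0.21) was above 0 without NB A1.

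The comparison of 3d with 6h shares no library with the one that chose the genes, so a test was made. Its spread was estimated over all groups, including the NB and 1d libraries that chose the genes. The test is therefore not wholly independent of that choice. Adra2c rose from 21.8 ± 4.39 CPM at 6h (SD, n = 3) to 65.8 ± 24.0 at 3d (n = 4), a log2 difference of 1.52 ± 0.27 (limma adjusted p = 0.0214), and its libraries did not overlap. It was the only 1 of the 9 past the test, where 0.64% of all genes were past it in the higher direction. All 9 differences were above 0, beside 46.3% of all genes, with the RPE markers at a median log2 difference of 0.65. For Trhde (1.07 ± 0.37), Minar1 (0.85 ± 0.26), Itgb8 (1.04 ± 0.28) and Crhr2 (1.01 ± 0.26) the libraries did not overlap either, which makes 5 of the 9, where 12.6% of all genes lay wholly higher. Their adjusted p-values were 0.137, 0.1002, 0.0766 and 0.0657 by limma. For Tshr the interval of the difference ran from -0.19 to 0.93, for Inpp5k from -0.27 to 0.74, for Enpp2 from -0.31 to 0.66 and for Gpr139 from -0.57 to 0.91. Gpr139 was below 0 without 6h 1 or without 3d 2, and Enpp2 was below 0 without 6h 1. The call of Adra2c was lost when the 2 groups were fitted alone (limma adjusted p = 0.0922), without 6h 1 (limma adjusted p = 0.168), without 6h 3 (0.0951) and without 3d 4 (0.0565). All 6h libraries are in the deeper set and all 3d libraries in the shallower, so depth set and time cannot be told apart.

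**Figure D2:**
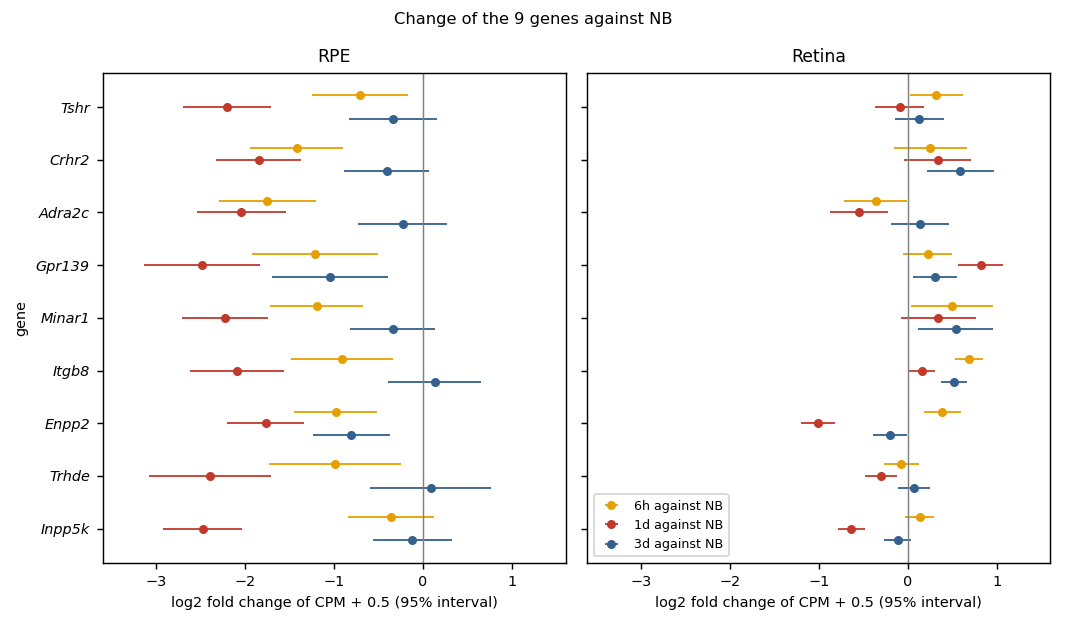
Log2 fold change of CPM + 0.5 against NB for the 9 genes in RPE (left) and retina (right) at 6h, 1d and 3d, with limma's 95% interval as bars and 0 as the grey line. In RPE the 1d values (red) lie between -2.48 and -1.77 for all 9 genes, while in retina they lie between -1.01 (Enpp2) and 0.82 (Gpr139).

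Levels were also set against the RPE markers, a view chosen after the data had been seen. At 1d, 9 of the 18 RPE markers were lower than NB by the test, with a median log2 difference of -0.87, and Rpe65 averaged 432 ± 139 CPM against 2462 ± 797 in NB (log2 -2.51 ± 0.27, limma adjusted p = 4.30e-05). The most abundant of the 18 markers in NB, and so the largest parts of their sum, were Ttr and Rgr. Ttr averaged 7613 ± 1306 CPM in NB and 4117 ± 1097 at 1d, and Rgr 5654 ± 1549 and 3650 ± 805. Both fell less than Rpe65, and the members were not set against Rpe65 alone. As CPM per 1000 CPM of summed RPE marker signal, all 9 genes were lower at 1d than in every NB library. The means differed by 1.93-fold (Enpp2) to 5.95-fold (Gpr139). On this scale 0.718% of all genes lay wholly below NB at 1d and 47.8% wholly above. The 1d and NB libraries chose the genes, and NB enters every count on this scale, so these counts are a description. Tshr was at 1.80 ± 0.160 per 1000 at 1d (SD, n = 4) against 4.78 ± 0.738 in NB (n = 5), and Inpp5k at 10.4 ± 2.26 against 32.3 ± 3.66. At 6h, on the same scale, 5 of the 9 were below all NB libraries (Gpr139, Minar1, Enpp2, Adra2c and Crhr2), where 0.287% of all genes were. A further 3 overlapped NB, and Inpp5k was above all NB libraries at 39.9 ± 0.919, as were 43.8% of all genes. At 3d, 6 of the 9 were below all NB libraries (Inpp5k, Tshr, Gpr139, Enpp2, Adra2c and Crhr2), where 0.7% of all genes were, and 3 overlapped NB. Enpp2 at 3d was at 39.6 ± 2.73 against 72.9 ± 5.52 in NB, close to its 1d level of 37.8 ± 0.989.

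Markers of other cells were read in RPE too. The summed level of 12 rod markers was 4101 to 6621 CPM in NB, 5482 to 15231 at 6h, 3201 to 8715 at 1d and 4926 to 8620 at 3d. These ranges overlap, and 0 of the 12 passed the test against NB at any time by limma or edgeR. The median log2 difference of the 12 was 0.68 at 6h, -0.01 at 1d and 0.21 at 3d. At an unadjusted p under 0.05 there were 5 at 6h and 0 at 1d and 3d, and with DESeq2 3 at 6h and 0 at 1d and 3d. The summed level of 10 macrophage markers was 347 to 371 in NB, 220 to 264 at 6h, 183 to 241 at 1d and 345 to 434 at 3d. At 1d 1 of these 10 passed the test in the lower direction, Csf1r (log2 -1.53 ± 0.19, limma adjusted p = 1.52e-04), and the median of the 10 was -0.06. At 6h 0 passed by limma or edgeR, 1 by DESeq2 and 2 at an unadjusted p under 0.05, with a median of -0.26. Of 10 endothelial markers, 3 were lower at 1d by the test (median log2 difference -0.67). Of 8 melanocyte markers 2 were lower at 1d (median -0.38), and of 10 fibroblast and pericyte markers 0 passed (median -0.51). Of 8 Muller glia markers 1 was lower and 1 higher at 1d (median -0.0011). The melanocyte and Muller glia lists share genes with the RPE list. The summed surface epithelium level was lowest of the NB libraries in NB A1 and lowest of the 3d libraries in 3d 2. The part of these cells, and of the surface epithelium named above, in the members' differences was not tested.

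The members varied together within groups too. Over the 36 pairs of members, the correlation of log2(CPM + 0.5) after subtracting each group's mean was 0.572 to 0.988, with a median of 0.834 over the 16 RPE libraries. All values of a library share its scaling and its mix of cells. Of the genes outside the set, those whose level over the 16 libraries was most like the mean standardised profile of the 9 were Slco1a4 (Pearson r = 0.995), an organic anion transporter, Rpe65 (0.994), Tmem72 (0.994), a transmembrane protein gene, Gm13111 (0.989), a predicted gene, and Ntn4 (0.986), a basement membrane netrin. These correlations span the groups and describe a shared pattern only. Slco1a4 averaged 159 ± 44.3 CPM in NB, 82.6 ± 19.4 at 6h, 46.1 ± 9.27 at 1d and 131 ± 31.4 at 3d (SD).

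Partners of the 9 genes in their pathways were read from 9 lists of 137 genes, of which 119 were tested in RPE. At 1d against NB, 7 of the 119 passed the test (5.88%), beside 5.61% of all genes in either direction. Their median log2 difference was -0.05. With edgeR 8 of the listed genes passed and with DESeq2 16.

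Among phosphoinositide phosphatases, the family of Inpp5k, 2 of 15 passed. Inpp4b fell from 20.6 ± 9.72 CPM (SD, n = 5) to 6.01 ± 1.41 (n = 4) at 1d (log2 -1.62 ± 0.24, limma adjusted p = 8.21e-04), and Inpp5f rose from 19.6 ± 1.73 to 25.0 ± 1.28 (log2 0.35 ± 0.09, adjusted p = 0.0365). Among alpha v integrins and TGF-beta genes, the partners of Itgb8, 2 of 21 passed. Tgfbr2, a TGF-beta receptor, fell from 50.8 ± 3.33 to 35.5 ± 5.65 CPM (log2 -0.52 ± 0.10, limma adjusted p = 0.00587). Itgb3, another alpha v partner, fell from 2.71 ± 0.532 to 1.25 ± 0.258 CPM (log2 -0.87 ± 0.19, adjusted p = 0.0115).

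Lpar3, a lysophosphatidic acid receptor, was the only 1 of 14 genes of the autotaxin list to pass, at 1.65 ± 1.096 CPM at 1d against 3.80 ± 0.817 in NB (log2 -1.11 ± 0.25, limma adjusted p = 0.0155) with overlapping libraries. Of 26 G protein and cyclic AMP genes, Adcy4, an adenylyl cyclase, passed at 0.905 ± 0.457 against 2.41 ± 0.857 CPM (log2 -1.07 ± 0.28, limma adjusted p = 0.0356). Of 13 Notch genes, Notch2, the receptor for which Minar1 is named, fell from 238 ± 6.83 to 186 ± 21.6 CPM (log2 -0.36 ± 0.10, limma adjusted p = 0.0479), a call that edgeR did not make. In the thyroid hormone list (10 tested), the urocortin list (3), the adrenergic list (9) and the aminopeptidase list (8), 0 genes passed limma's test. At an unadjusted p under 0.05 these lists held 1, 1, 0 and 1 genes, edgeR called 1, 1, 0 and 0, and DESeq2 called 1, 1, 0 and 1. At 6h 2 of the 119 passed, of which Tgfbr2 was lower (log2 -0.53 ± 0.11, limma adjusted p = 0.0331) and Slco1c1, a thyroid hormone transporter, higher (0.83 ± 0.19, adjusted p = 0.0420). At 3d against NB 0 of the 119 passed with limma or edgeR, 2 with DESeq2, and 22 had an unadjusted p under 0.05. Over all 16712 genes 30 passed with limma and 139 with DESeq2, and 1659 had an unadjusted p under 0.05. At 3d against 1d, 8 of the 119 passed (6.72%), all in the higher direction, beside 6.58% of all genes in either direction. They were Thra (0.42 ± 0.11), a thyroid hormone receptor, Crhbp (1.17 ± 0.33), a binding protein of urocortins, Adcy3 (0.48 ± 0.12), an adenylyl cyclase, Enpp5 (0.57 ± 0.14), of the family of Enpp2, Itgb3 (1.07 ± 0.20), Inpp4b (1.31 ± 0.26) and the Notch genes Hey1 (1.18 ± 0.26) and Dll1 (0.71 ± 0.14), each as a log2 difference with its SE. In retina 116 of the partners were tested, and 47, 68 and 70 passed at 6h, 1d and 3d against NB. Those are 40.5%, 58.6% and 60.3%, beside 35.4%, 51.5% and 43.2% of all genes.

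**Figure D3:**
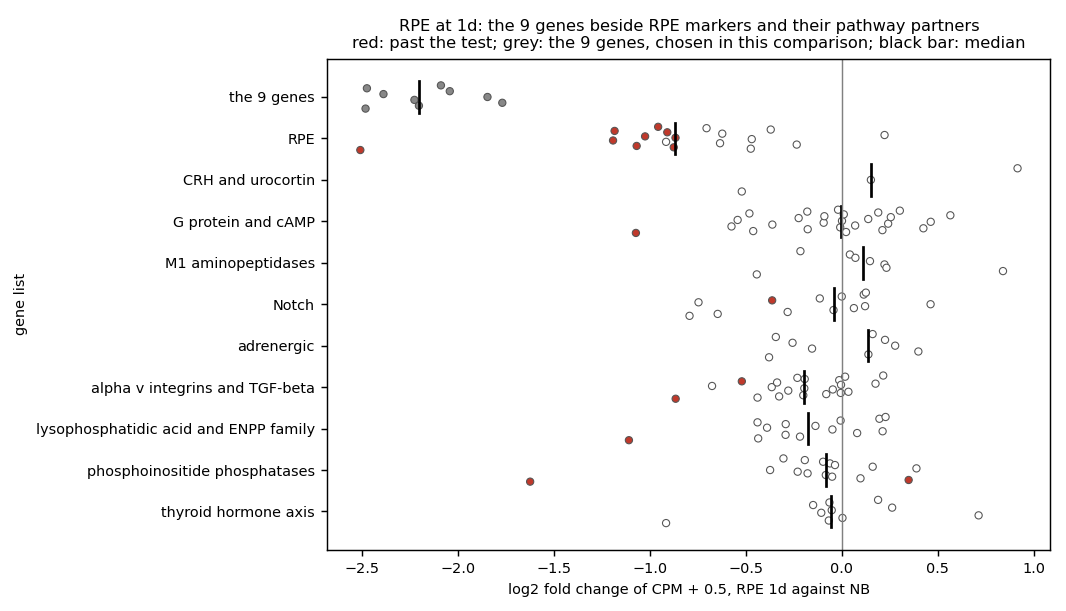
Log2 fold change of CPM + 0.5 at 1d against NB in RPE for the 9 genes (grey), the 18 RPE markers and the 9 lists of pathway partners, with genes past the test in red and list medians as black bars. The 9 genes were chosen by their fall in this comparison and lie at or below -1.77, so their distance from the other lists is a description. Of the RPE markers only Rpe65 lies that low, and the medians of the pathway lists lie near 0.

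Retina libraries took no part in the choice of the genes, so the members were tested there; retina and RPE tables were normalized separately and no test was made between them. All 9 genes passed the filter on low values in both tissues. At 6h, Itgb8 and Enpp2 rose in retina, 2 of 9 where 35.4% of all 16926 genes passed in either direction. Of the 17 RPE markers tested in retina, 10 passed in the higher direction at 6h and 1 in the lower, at a median log2 difference of 0.76. The part of that shift in the rise of the members was not tested. Itgb8 was at 45.3 to 55.7 CPM in NB (median 52.1, n = 6) and at 91.1, 74.2 and 83.2 at 6h, a log2 difference of 0.69 ± 0.07 (limma adjusted p = 9.24e-07). Enpp2 was at 114 to 149 CPM in NB (median 132) and at 174, 154 and 197 at 6h (0.39 ± 0.10, limma adjusted p = 0.00510), and it was not past the test without 6h 3 (adjusted p = 0.0527). The 6h libraries were above all NB libraries for both genes. Against the 2 NB libraries of the same depth set alone the differences were 0.75 for Itgb8 and 0.52 for Enpp2, both past the test.

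At 1d, 5 of 9 passed in retina, where 51.5% of all genes did, so the share is near that of all genes. Enpp2 fell the most: its 1d values of 69.7, 72.1, 65.4 and 56.5 CPM were all below the NB range (log2 -1.01 ± 0.09, limma adjusted p = 2.46e-08). Inpp5k, at 87.2 to 109 CPM in NB (median 99.4), was at 57.7, 63.8, 76.5 and 57.2 at 1d (-0.64 ± 0.07, limma adjusted p = 5.00e-07). Adra2c fell from a mean of 8.48 ± 1.95 to 5.60 ± 1.21 CPM (-0.55 ± 0.15, limma adjusted p = 0.00600) and Trhde from 18.2 ± 1.55 to 14.7 ± 1.68 (-0.30 ± 0.09, adjusted p = 0.00612), both with overlapping libraries. With scaling to library totals Trhde was not past the test, and Itgb8 and Crhr2 were past it in the higher direction. Gpr139 rose: it was at 3.00 to 3.64 CPM in NB (median 3.25) and at 7.27, 5.16, 6.46 and 5.79 at 1d (0.82 ± 0.12, limma adjusted p = 1.23e-05), without overlap. Tshr, at 5.46 to 8.28 CPM in NB and 5.41 to 8.63 at 1d, gave -0.09 ± 0.13, and the sign turned with scaling to library totals. Against the 4 NB libraries of the shallower set, the 1d differences were -1.08 for Enpp2, -0.62 for Inpp5k, -0.72 for Adra2c, -0.27 for Trhde and 0.78 for Gpr139, all past the test, and Crhr2 passed too at 0.57 (limma adjusted p = 0.00546).

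At 3d, 4 of 9 passed in retina, where 43.2% of all genes did. Itgb8 was at 71.9, 80.4, 73.0 and 68.9 CPM, above all NB libraries (0.52 ± 0.07, limma adjusted p = 8.04e-06). Crhr2 was at 3.05, 3.80, 2.50 and 3.52 CPM against 1.29 to 3.14 in NB (0.59 ± 0.18, limma adjusted p = 0.0127). Minar1 (0.54 ± 0.20, adjusted p = 0.0362) and Gpr139 (0.30 ± 0.12, adjusted p = 0.0473) passed narrowly by limma. Minar1 was not past the test without NB B1, NB B3 or any of 3d 1, 3d 2 and 3d 3, and Gpr139 was not past it without any of NB A1, A2, B1, B2 or B3 or any of 3d 1, 3d 2 and 3d 3. Within the shallower set (NB B1 to B4), Itgb8 (0.49), Crhr2 (0.82) and Minar1 (0.66) were past the test and Gpr139 (0.27) was not (limma adjusted p = 0.136), while Enpp2 was lower (-0.27, adjusted p = 0.0366). Inpp5k stood at -0.11 ± 0.07, and it stood above 0 with scaling to library totals.

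Retina libraries also held transcripts of the RPE marker genes. The summed level of these markers (17 of 18 in the table) was 1149 to 1439 CPM in NB, 1490 to 1922 at 6h, 1010 to 1176 at 1d and 1378 to 1752 at 3d. Highest of them in retinal NB were Rlbp1 (482 ± 50.2 CPM), which was also listed as a Muller glia marker, and Otx2 (227 ± 6.96). The sum therefore does not measure RPE alone. Rpe65 averaged 64.6 ± 4.90 CPM in retinal NB (n = 6) and 19.4 ± 5.33 at 1d (n = 4). By the test, 10 of the 17 markers were higher and 1 lower at 6h, 1 higher and 5 lower at 1d, and 5 higher and 1 lower at 3d. All 12 rod markers were lower in retina at 1d by the test, with a median log2 difference of -1.45. The part of these shifts in the retinal values of the members was not tested.

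**Figure D4:**
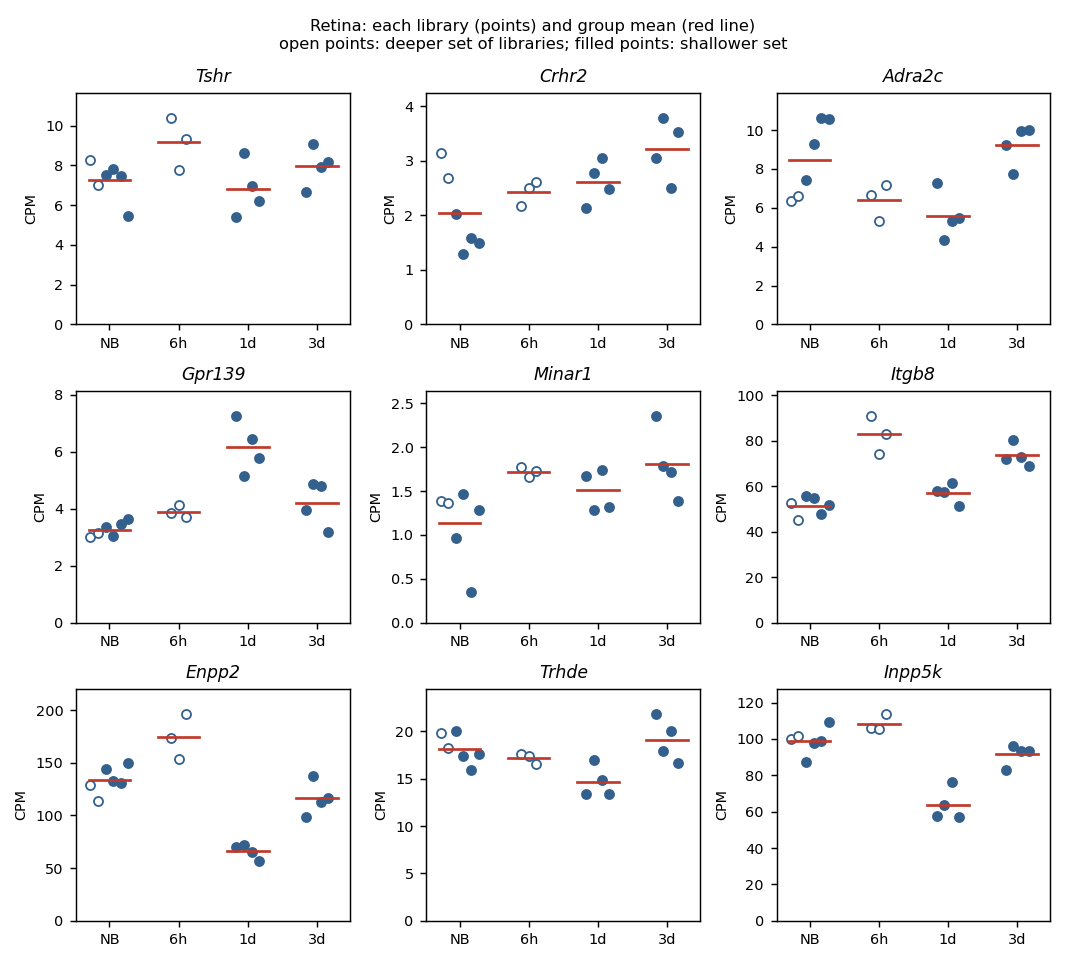
Level in CPM (linear axis from 0) of each of the 9 genes in every retina library, by group (6 NB, 3 6h, 4 1d and 4 3d libraries), with the group mean as a red line and the deeper set of libraries as open points. Enpp2 and Inpp5k are lowest at 1d, Gpr139 is highest at 1d, and Itgb8 is above all NB points at 6h and 3d.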

How the data were processed

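RNA libraries of retina (17) and RPE (16) were used, and no ATAC library. Trimmomatic, STAR, edgeR and the GRCm38 genome are named in the submitters' processing notes; versions and the read counter are not given in the sources used here. The deposited signal values are CPM, scaled by the authors to effective library sizes after filtering low genes by an unstated rule. All values were whole multiples of 1 read within 0.01 of a read, so reads were recovered. The deposited log2 fold changes are the authors' shrunk values against NB. The deposited p-values are the authors' own and were not used for calls.

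Values were tested as log2(CPM + 0.5), which shrinks differences of low genes, with limma 3.58.1 (R 4.3.3; 1 trended fit per tissue over all groups, Benjamini-Hochberg, threshold 0.05) for genes at 1 CPM or more in at least 3 libraries (16712 in RPE, 16926 in retina). The test was tried on simulated data. Also tried were TMM rescaling, scaling to library totals, pseudocounts of 0.1 and 2, no filter, edgeR 4.0.16, DESeq2 1.42.0, fits of a pair of groups alone, NB libraries of 1 depth set, a replicate block and leaving out each library. Identifiers without a symbol (7 in RPE, 6 in retina) stayed in the tests.

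The genes, the 9 pathway lists and 8 marker lists were chosen with earlier results of these data known. Named beside the 9 genes were up to 3 genes a list with the smallest adjusted p among those past the test in RPE at 1d against NB, and the 5 genes most like the members' mean profile; other genes named, such as Best1, Csf1r, Slco1c1, Hey1 and Dll1, were chosen after their values were seen. NB columns match their group but no single sample; the letters A and B were given here.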

Additional observations from a re-analysis of the deposited data

Results flagged for a closer look

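In RPE 27 sets of values were checked, each of 1 gene in 1 group of at least 4 libraries. Of these, 3 held a library far from the others of its group, and of the 27 in retina 0 did. Chance alone gives such a gap in about 1 of 20 independent sets. The members vary together within groups, so these sets are not independent and the counts are a description. All 3 were NB A1, the NB library of the deeper set: Inpp5k read 1211 CPM there against 686 to 809 in the other NB libraries, Gpr139 8.77 against 3.07 to 4.59, and Trhde 90.4 against 28.3 to 45.6. The summed RPE markers were also highest of NB in this library, and the part of that in these values was not tested.

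Some genes had all libraries on one side of NB in RPE and on the opposite side in retina, a difference between tissues that was not tested. Of all genes, 5.98% lay wholly below NB in RPE at 6h and 5.27% at 1d. In retina 16.1% lay wholly above NB at 6h and 16.3% at 1d. The share of all genes that lay on opposite sides in both tissues was not counted. The RPE side uses libraries that chose the genes and is a description. Gpr139 had log2 differences of -1.21 in RPE and 0.22 in retina at 6h, and of -2.48 and 0.82 at 1d. At 6h, Minar1 had -1.19 and 0.49, Enpp2 -0.98 and 0.39, and Itgb8 -0.91 and 0.69. In retina at 6h Enpp2 and Itgb8 were past the test, while Gpr139 (limma adjusted p = 0.198) and Minar1 (limma adjusted p = 0.0857) were not. The RPE markers also went opposite ways at 6h, with a median log2 difference of -0.49 in RPE and 0.76 in retina. The part of that shift in the members' values was not tested.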

How the results depend on the processing

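At 1d against NB in RPE all 9 members were past the test under every alternative and without any single library. As this comparison chose the genes, nothing is read from that. The count over all genes (937) was 1668 with DESeq2, 537 with the 2 groups alone and 618 to 1426 without single libraries. At 6h the 244 genes became 147 with library totals, 383 with edgeR, 1250 with DESeq2, 452 with the 2 groups alone and 9 to 1011 without single libraries, and the 4 members became 2 with library totals, 6 with DESeq2, 3 with the 2 groups alone and 0 to 4 without single libraries. At 3d against NB the 30 genes became 139 with DESeq2, 19 with the 2 groups alone and 15 to 35 without single libraries, and the 0 members became 1 with DESeq2. At 3d against 1d the 1100 genes became 1977, 527 and 363 to 1196 in the same order, and 7 to 9 members passed without single libraries. At 3d against 6h the 146 genes became 63 with library totals, 1121 with DESeq2, 31 with the 2 groups alone and 11 to 346 without single libraries, and the 1 member became 4 with DESeq2, 0 with the 2 groups alone and 0 to 1 without single libraries. In retina 1 to 2 members passed at 6h without single libraries, and at 3d 2 with the 2 groups alone and 2 to 4 without single libraries. The cause of these shifts was not tested.

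Library totals moved the share of higher calls from 55.3% to 81.0% (RPE 6h), from 73.3% to 58.7% (RPE 3d against 6h), from 46.5% to 74.3% (retina 1d) and from 44.6% to 76.9% (retina 3d); the median of all genes moved to 0.15 and 0.12 in the last pair. With DESeq2 it moved from 90.0% to 58.3% at RPE 3d against NB and from 74.8% to 64.2% at RPE 3d against 1d. The counts that follow pool all comparisons, including those that use the NB or 1d libraries that chose the genes. Some settings also repeat each other, so the counts are a description and no measure of stability. Of 1269 alternative values for single members, 1194 kept direction and side of the threshold, 40 were no longer past it, 19 were newly past it and 16 changed sign, 0 of them past the test. The 16 were Inpp5k at RPE 3d against NB (0.020 with NB of the shallower set, which is without NB A1; range without single libraries -0.27 to 0.020), Trhde there (-0.0027 with edgeR, -0.0018 with DESeq2, -0.072, -0.039 and -0.10 without NB B3, NB B4 and 3d 2; range -0.10 to 0.34) and Itgb8 there (-0.047 without 3d 2; range -0.047 to 0.31). At RPE 3d against 6h they were Gpr139 (-0.031 without 6h 1, -0.023 without 3d 2; range -0.031 to 0.40) and Enpp2 (-0.018 without 6h 1; range -0.018 to 0.28). In retina they were Crhr2 at 6h (-0.22 within the deeper set), Tshr at 1d (0.064 with library totals; range without single libraries -0.21 to 0.0025), and at 3d Inpp5k (0.040 with library totals) and Adra2c (-0.030 within the shallower set).

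With the replicate block, 40 genes and 1 member passed at RPE 3d against 6h, and 854 genes and 9 members at 3d against 1d. Same-numbered libraries correlated at -0.391 to 0.336 in their deviations from group means, and different-numbered ones at -0.471 to 0.422. No pairing by number was seen, though so few libraries a group cannot exclude one. NB columns carry no sample number, so no block could be had against NB. With 2 to 15 reads a library at 1d, Gpr139 and Minar1 differences in RPE are imprecise.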
